A study of Mus musculus with 7 samples.

Results

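The monoamine and acetylcholine receptors are the cell-surface proteins through which cells sense serotonin, dopamine, noradrenaline, adrenaline and acetylcholine. Their genes were taken as the protein-coding rows of the count table whose symbols belong to the Htr, Drd, Adra and Adrb, Chrm and Chrn receptor families, which gave 49 of the 55416 genes listed. They comprise 14 serotonin, 5 dopamine, 9 adrenergic, 5 muscarinic and 16 nicotinic genes. The rule reads gene names and no measured value, though the set was proposed with earlier results of these data known.

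The libraries came from the prefrontal cortex (PFC) of female C57BL/6 mice whose PFC had been injected on both sides with recombinant adeno-associated virus (rAAV). Ctr mice received the empty vector, Ref mice a vector carrying the human long noncoding RNA PAXIP1-AS1 with the reference C allele at a single-base variant, and Alt mice the same transcript with the alternative G allele. All 3 vectors carried an EGFP reporter, and inserts and reporter were driven by the human synapsin promoter, which is active in neurons. The study states that PAXIP1-AS1 has no mouse homologue. There were 3 Ctr, 2 Ref and 2 Alt libraries of polyadenylated RNA. The sources used here do not give the age of the mice at collection or whether a library is 1 mouse or a pool, so the p-values measure only the spread between these libraries. The tissue was whole PFC, with transduced and other cells together, and the transgene itself was not analysed here.

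In the cortex these transmitters arrive mostly on axons whose cell bodies lie in the brainstem, midbrain and basal forebrain, while the receptors are made by the cortical cells that receive them. Most of the receptors are G protein-coupled. Gq-coupled receptors release calcium from stores, Gs-coupled receptors raise cyclic AMP, and Gi/o-coupled receptors lower it and open potassium channels. The Htr3 and nicotinic (Chrn) proteins are instead subunits of pentameric cation channels. Several of the genes are targets of antipsychotic, antidepressant or cognition-directed drugs.

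The totals ran from 16655697 to 20750857 counts per library. Excitatory neuron markers were high in every library, with Slc17a7, the vesicular glutamate transporter of cortical pyramidal cells, between 1126 and 1558 CPM (counts scaled to a common library size). The 5 markers of this list did not move together. In Alt against Ctr, Slc17a7 was higher (log2 difference 0.32, unadjusted p = 0.0437) and Neurod6 lower (-0.65, unadjusted p = 0.00761), and in Ref against Ctr Neurod6 was lower (-0.52, unadjusted p = 0.0237). Markers of choroid plexus and muscle were lower than these, with Ttr at 0 to 0.197 CPM. The highest were Kl for choroid plexus, at 1.91 to 5.20 CPM, and Acta1 for muscle, at 3.90 to 11.5 CPM. The marker sums of several cell types also differed by group, and the part of any of these markers in the receptor values was not tested. The summed level of 7 inhibitory neuron markers was 76.9 and 115 FPKM (fragments per kilobase and library size) in Alt, 147 to 178 in Ctr and 153 and 170 in Ref. Of these 7, Sst (log2 difference of Alt from Ctr -1.15), Pvalb (-0.84) and Vip (-0.60) had an unadjusted p under 0.05, while Slc32a1 was at -0.01 and Gad2 at 0.16. The striatal projection neuron sum of 8 markers was 17.4 and 25.0 FPKM in Alt, 27.8 to 31.2 in Ctr and 26.2 and 37.8 in Ref. Of these 8, Penk alone had an unadjusted p under 0.05 in Alt against Ctr (log2 difference -1.03), while Adora2a (0.77), Rgs9 (0.65) and Pde10a (0.34) had positive differences. The oligodendrocyte sum of 6 markers was 648 and 765 FPKM in Ref, 383 to 545 in Ctr and 356 and 429 in Alt. The endothelial sum of 4 markers was 65.4 and 67.7 FPKM in Ref, 47.5 to 64.3 in Ctr and 50.7 and 79.9 in Alt.

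The PFC libraries expressed a graded series of receptors, led by muscarinic and adrenergic genes. Of the 49 genes, 25 had a mean level of at least 1 FPKM in Ctr and 7 reached at least 10 FPKM. FPKM divides counts by gene length, so levels of different genes can be compared on this scale. Chrm1, the main Gq-coupled muscarinic receptor of cortical pyramidal cells, led at 25.9 ± 1.40 FPKM in Ctr (SD, n = 3). Below it stood Adrb1, the Gs-coupled beta receptor, at 18.6 ± 1.93 FPKM, and Chrm4, a Gi/o-coupled muscarinic receptor, at 17.9 ± 3.18 FPKM. Adra1d, a Gq-coupled receptor for noradrenaline, was at 15.0 ± 2.03 FPKM, Chrm3 at 12.4 ± 0.420, Adra2c at 10.3 ± 1.08 and Htr2a at 10.1 ± 0.895.

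Chrna4 and Chrnb2, which together form the common high-affinity nicotinic receptor of the brain, were the leading channel subunits at 7.82 ± 0.946 and 6.24 ± 0.154 FPKM. Adra1b lay between them at 7.14 ± 2.23 FPKM. Htr5a at 4.14 FPKM, Drd1 at 3.61, Adra2a at 3.47, Chrm2 at 3.44, Htr1b at 3.41, Htr2c at 3.08 and Htr1a at 3.07 made a plateau. Chrna7, the subunit of homomeric nicotinic channels, followed at 2.54 FPKM, with Htr6 at 2.48 and Htr3a at 1.66. At the lower end of this range were Htr7 at 1.54 FPKM, Chrna5 at 1.35, Adra1a at 1.16 and Htr1f at 1.12.

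**Figure D1:**
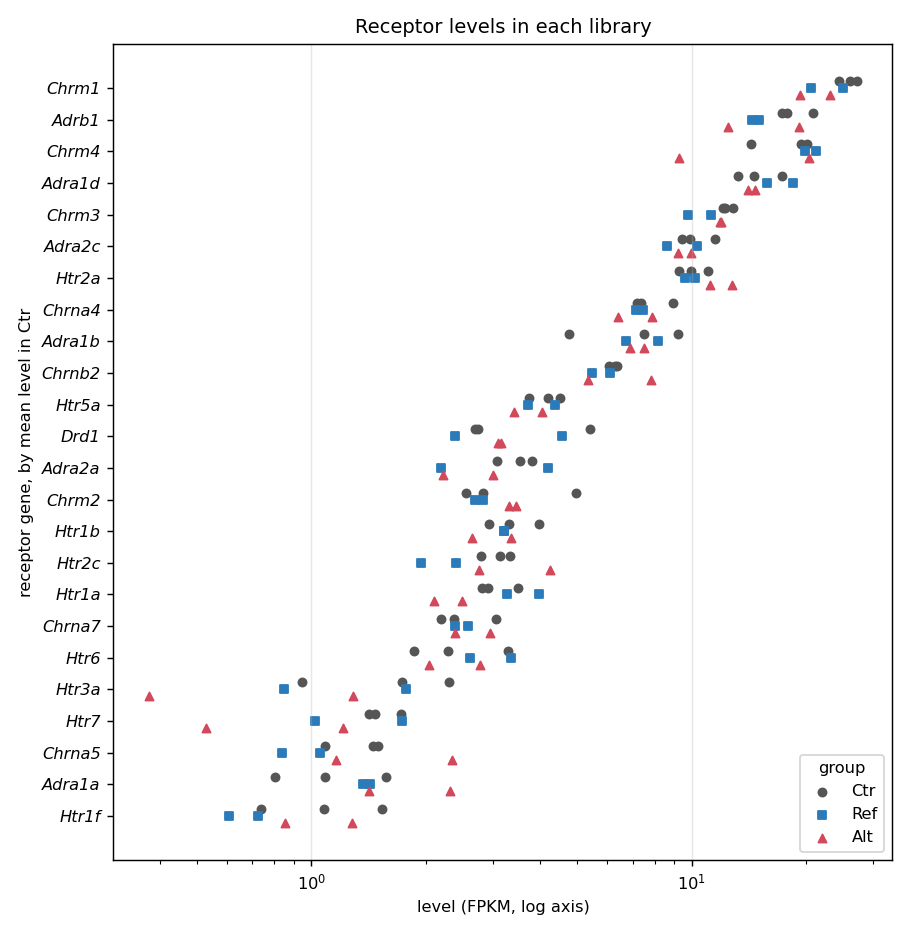
Level of 24 of the 25 receptor genes with at least 1 FPKM in Ctr, on a log axis, with a point for each of the 7 libraries (grey circles Ctr, blue squares Ref, red triangles Alt). Chrm1 is highest in every group, and the 2 Alt points lie far apart for Chrm4, Htr3a and Htr7.

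Neighbours in this order were mostly not separable. Of 38 neighbouring pairs compared in Ctr, 10 differed by more than their pooled SD, and in 5 pairs the Ctr libraries did not overlap. Those 5 were Chrm1 over Adrb1, Adra1d over Chrm3, Chrm3 over Adra2c, Htr2a over Chrna4, and Chrnb2 over Htr5a. Within the plateau from Htr5a to Htr1a no neighbouring pair had separate Ctr libraries, although the first gene, Htr5a, was above the last, Htr1a, in every Ctr library.

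The lower part of the family included genes known mainly from other tissues or brain regions. Drd2, the Gi/o-coupled dopamine receptor abundant in striatum, had 33, 50 and 42 counts in Ctr, 63 and 30 in Ref and 4 and 35 in Alt. Adrb3 had 8 to 66 counts per library and Htr4 had 0 to 36. Drd5 had 0 to 51 counts, Htr5b 0 to 20, Drd4 0 to 24, Chrm5 0 to 24 and Htr1d 0 to 14. Among nicotinic subunits, Chrnb1 had 18 to 56 counts, Chrnb3 18 to 45, Chrna3 4 to 26, Chrna1 0 to 17 and Chrna2 0 to 31. Counts for several of these appeared in some libraries of a group and not in others. For instance, Chrm5 had 13, 0 and 12 counts in Ctr, 0 and 0 in Ref, and 0 and 24 in Alt.

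The low-count filter passed 38 of the 49 genes, and it could pass a gene through a single group. Of the 11 that did not pass, 7 had no count in any library. These were Drd3, found mainly in the ventral striatum, Htr3b, Chrnb4, the pair Chrna9 and Chrna10 known from cochlear hair cells, and the muscle receptor subunits Chrnd and Chrng. A count of 0 allows up to 3 counts per library, which is 0.139 to 0.195 CPM at these depths. The other 4 were Htr2b with at most 7 counts in a library, Adra2b with 6 counts in Ref 2 alone, Chrna6 with 3 counts in Ctr 1 alone, and Chrne with 3 counts over all libraries. The limit covers counting error only.

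Some of the genes lie close together, at positions given as the count table lists them in a mouse build that the sources used here do not name. Chrna5 (chromosome 9, 54888164 to 54915063, plus strand) and Chrna3 (54917395 to 54933846, minus strand) lie 2331 bases apart, and Chrnb4 follows 1591 bases beyond. In Ctr the 3 neighbours stood at 1.35, 0.160 and 0 FPKM. Chrnb3 and Chrna6 lie 3481 bases apart on chromosome 8, with 18 to 45 counts for the first and almost none for the second. Htr3a and Htr3b lie 23908 bases apart on chromosome 9, and only Htr3a was detected.

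How firmly groups can be compared depends on the libraries within them. Between Alt 1 and Alt 2 the 38 tested genes had a median absolute log2 difference of 0.51, against 0.28 to 0.39 for the Ctr pairs and 0.20 for the Ref pair. A difference over 2-fold was seen for 10 of the 38 genes between the Alt libraries, and for at most 4 in any other pair. That is 26.3% for the Alt pair, where 17.0% of all genes tested differed that much, and 2.63% to 10.5% for the others, against 3.19% to 10.8%. Of those 10, Chrm4, Chrm5, Chrna1, Drd2, Drd5 and Htr3a were higher in Alt 2, and Chrna2, Drd4, Htr1d and Htr4 were higher in Alt 1. Over all 17254 genes tested the median was 0.42 for the Alt pair, so the wider spread was not restricted to receptors.

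**Figure D2:**
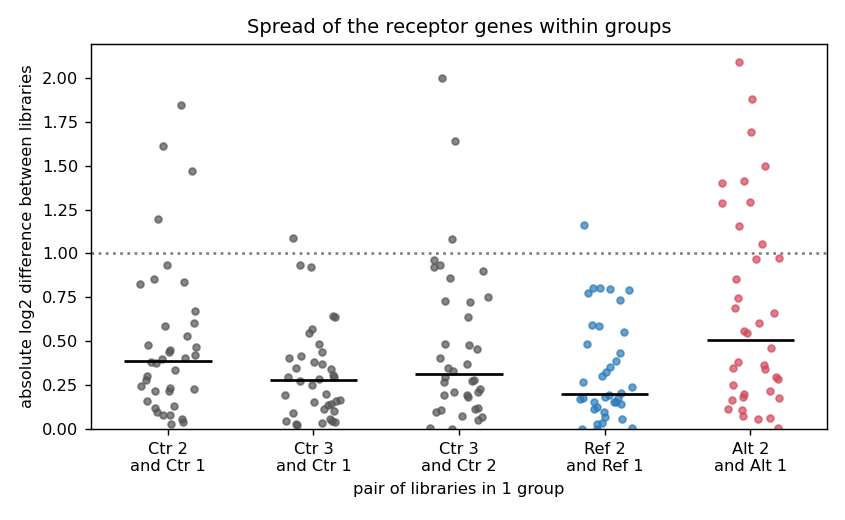
Absolute log2 difference of CPM (with 0.5 added) between the libraries of each within-group pair, 1 point per tested receptor gene, black bars at the median and a dotted line at 2-fold. The Alt pair has the highest median, 0.51, and 10 points above the line.

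The comparison of Alt with Ctr asks what the alternative allele's transcript changed against the empty vector. By the quasi-likelihood test of edgeR, no receptor gene passed an adjusted p of 0.05, where 0.0% of the 17254 genes passed. At an unadjusted p under 0.05, 2 of the 38 were called, Adra1a and Htr2a, both higher in Alt, which is 5.26% against 19.8% of all genes. By DESeq2's Wald test 3 of 38 had an unadjusted p under 0.05, where 21.1% of all genes did, and none of the 25 with an adjusted p passed 0.05, the smallest being 0.109, while 8.5% of all genes with an adjusted p passed. The median log2 difference was 0.05 over the receptors and -0.03 over all genes tested, with 20 receptors higher and 18 lower. Without Alt 1 the median over the receptors turned to -0.06, with 16 higher and 22 lower. In bulk tissue, fewer cells of a type and less RNA per cell cannot be told apart.

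Htr2a (chromosome 14, 74878280 to 74946934, plus strand) encodes the Gq-coupled serotonin receptor of pyramidal cells, the site of action of classical psychedelics and a target of atypical antipsychotics. It was at 59.4, 51.0 and 53.7 CPM in Ctr, 51.4 and 58.4 in Ref, and 77.5 and 65.0 in Alt. Both Alt libraries lay above all 5 others, whose ranges overlapped. The log2 difference of Alt from Ctr was 0.38 ± 0.16 (SE, unadjusted p = 0.0349, edgeR adjusted p = 0.215), and of Alt from Ref 0.38 ± 0.18 (unadjusted p = 0.0554, adjusted p = 0.332). The latter had an unadjusted p under 0.05 in 5 of 15 other settings, namely DESeq2's test, its size factors, the gene length correction, protein-coding genes only and without Alt 2 (0.51), and was 0.25 without Alt 1. The Ref to Ctr difference was 0.01 ± 0.16. Under 15 other settings the Alt to Ctr difference ran from 0.25 to 0.50 and kept its unadjusted p under 0.05 in 7. It lost it without Ctr 2 (0.33), Ctr 3 (0.37), Ref 1 (0.37), Ref 2 (0.38) or Alt 1 (0.25), and also with the GC content correction (0.27), with the replicate number as a block (0.37) and with no low-count filter (0.37).

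Adra1a (chromosome 14, 66872700 to 67008617, plus strand) encodes a Gq-coupled receptor for noradrenaline. Its values were 6.75, 9.35 and 13.2 CPM in Ctr, 11.4 and 12.8 in Ref, and 21.9 and 12.9 in Alt. Alt 1 stood apart, while Alt 2 lay below the highest Ctr library. The Alt to Ctr log2 difference was 0.83 ± 0.31 (SE, unadjusted p = 0.0212, edgeR adjusted p = 0.178). It was 0.40 without Alt 1 (unadjusted p = 0.257) and 1.16 without Alt 2, and the unadjusted p was also above 0.05 without Ctr 1 (0.62) or Ctr 2 (0.80).

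**Figure D3:**
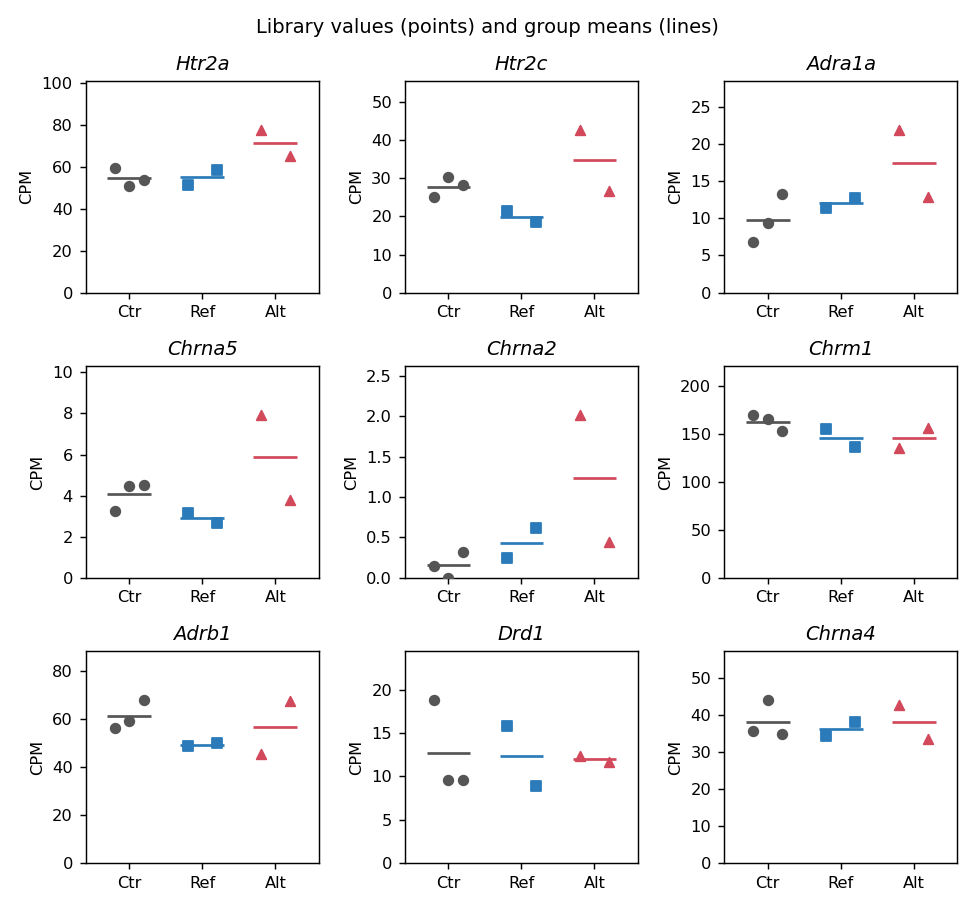
CPM of 9 receptor genes in each library (points) with group means (lines), each axis starting at 0. Both Alt points of Htr2a lie above the other 5 libraries, whereas Htr2c, Adra1a, Chrna5 and Chrna2 have 1 high Alt library and 1 nearer the other groups.

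The Alt and Ctr libraries did not overlap for 8 of the 38 genes. Alt was above for Chrna2, Chrnb1, Chrnb3 and Htr2a (10.5%, against 16.8% of all genes) and below for 4 others, Chrna3, Htr1a and Htr7 among them (10.5%, against 18.1%). Htr1a, the Gi/o-coupled receptor targeted by buspirone, was at 12.1, 12.8 and 15.1 CPM in Ctr, 17.0 and 15.0 in Ref and 12.1 and 9.81 in Alt. Alt 2 was the lowest of the 7 and Alt 1 fell just under the lowest Ctr library, with a log2 difference from Ctr of -0.29 ± 0.23 (unadjusted p = 0.237) that was -0.44 without Alt 1, -0.14 without Alt 2 and -0.19 without Ctr 3. Htr7, a Gs-coupled serotonin receptor, was at 4.81, 5.75 and 4.64 CPM in Ctr, 5.61 and 3.57 in Ref and 1.95 and 4.29 in Alt, so Alt 1 was far below Alt 2. Its log2 difference from Ctr was -0.69 ± 0.43 (unadjusted p = 0.131), which was -0.24 without Alt 1 and -1.37 without Alt 2 (unadjusted p = 0.0124).

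Chrnb1, a muscle-type nicotinic subunit also read at low level in brain, was at 0.893, 2.02 and 1.67 CPM in Ctr, 1.93 and 1.71 in Ref and 2.86 and 3.12 in Alt. Here the Alt libraries lay close together and above the rest, and the log2 difference from Ctr was 0.97 ± 0.56 (unadjusted p = 0.112). Chrnb3 was at 0.835 to 1.23 CPM in Ctr, 1.21 and 1.81 in Ref and 2.14 and 2.51 in Alt, a log2 difference of 1.14 ± 0.64 (unadjusted p = 0.102). The summed level of 7 skeletal muscle markers was 2.86 and 5.51 FPKM in Alt and 4.19 to 7.80 in Ctr, and its part in the Chrnb1 values was not tested.

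The intervals show what these libraries could bound. For 19 of the 38 genes the 95% interval of the Alt to Ctr log2 difference lay within -1 to 1, a change smaller than 2-fold in either direction. Chrm1 was among the most tightly bounded: it was at 169, 166 and 152 CPM in Ctr, 155 and 136 in Ref and 135 and 156 in Alt, with a log2 difference of -0.16 and an interval of -0.48 to 0.17. Its Alt and Ref values overlapped, and the Alt to Ref log2 difference was 0.00 with an interval of -0.35 to 0.36. With the GC content correction the differences were -0.0057 from Ctr and 0.29 from Ref (unadjusted p = 0.0860).

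Adrb1, the leading adrenergic gene, was at 56.0, 59.2 and 67.8 CPM in Ctr, 48.5 and 49.8 in Ref and 45.5 and 67.3 in Alt. Its Alt libraries lay far apart, the first below all other libraries and the second just under the highest Ctr library, and the Alt to Ctr log2 difference was -0.11 with an interval of -0.52 to 0.30. It turned to 0.14 without Alt 1, 0.04 with the gene length correction and 0.095 with the GC content correction. Chrna4, the leading nicotinic subunit, was at 35.5, 44.0 and 34.8 CPM in Ctr, 34.2 and 38.1 in Ref and 42.7 and 33.4 in Alt. The 3 groups overlapped, and the Alt to Ctr log2 difference was -0.00 with an interval of -0.41 to 0.41, and its sign changed in 8 of 15 other settings. Its partner Chrnb2 was at 49.0 to 52.5 CPM in Ctr, 48.9 and 47.0 in Ref and 70.9 and 46.5 in Alt, so Alt 1 alone was high.

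Drd1, the Gs-coupled dopamine receptor and the leading dopamine gene, was at 18.8, 9.59 and 9.61 CPM in Ctr, 15.8 and 8.84 in Ref and 12.3 and 11.7 in Alt. Ctr 1 and Ref 1 were high and the other 5 libraries lay between 8.84 and 12.3 CPM. The Alt to Ctr log2 difference was -0.07 with an interval of -0.83 to 0.68, and turned to 0.32 without Ctr 1 and 0.08 with the gene length correction. The striatal marker sum was 31.2 FPKM in Ctr 1 and 37.8 in Ref 1, the highest of their groups, and 17.4 to 30.1 FPKM in the other 5, and its part in the Drd1 values was not tested.

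**Figure D4:**
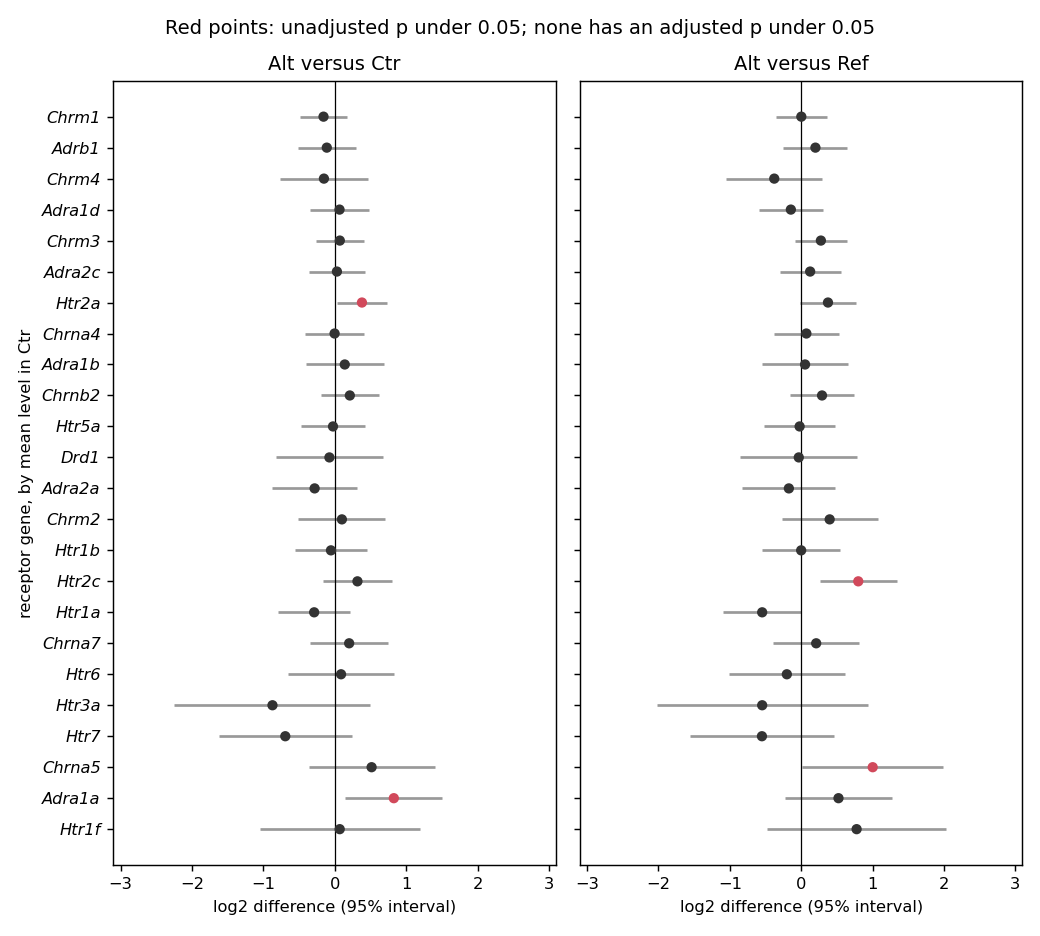
Log2 difference of Alt from Ctr (left) and of Alt from Ref (right) for 24 of the 25 receptor genes with at least 1 FPKM in Ctr, with 95% intervals as lines and red points where the unadjusted p was under 0.05. Most intervals cross 0, and the red points are Htr2a and Adra1a on the left and Htr2c and Chrna5 on the right.

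The comparison of Alt with Ref sets the G allele against the C allele, since both groups carried the transcript. The level of the transcript in the groups was not compared here. No receptor passed an adjusted p of 0.05 in edgeR, where 0.0058% of all genes did, and DESeq2 gave none of 20 with an adjusted p, where it called 3.82% of all genes with one. At an unadjusted p under 0.05, edgeR called 2 of 38, Htr2c and Chrna5, both higher in Alt, and DESeq2 called 4. The edgeR share was 5.26%, against 15.5% of all genes, and DESeq2 called 16.7% of all genes. With the gene length and GC content corrections edgeR called 5 and 7 receptors, where 13.0% and 16.6% of all genes were called. Without a correction the median log2 difference was 0.07 over the receptors, with 22 higher and 16 lower, and -0.04 over all genes. It was also 0.07 with Chrm5, which had no count in Ref, set to the bound that 3 counts per Ref library give.

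Htr2c (chromosome X, 145745509 to 145980273, plus strand) encodes the other Gq-coupled serotonin receptor expressed here, whose RNA is edited in brain. It was at 25.0, 30.4 and 28.2 CPM in Ctr, 21.4 and 18.5 in Ref and 42.8 and 26.8 in Alt. Both Ref libraries were the lowest of the 7, Alt 1 was the highest, and Alt 2 lay within the Ctr range. The Alt to Ref log2 difference was 0.80 ± 0.25 (SE, unadjusted p = 0.00732, edgeR adjusted p = 0.236), the Alt to Ctr difference 0.32 ± 0.22 (unadjusted p = 0.178) and the Ref to Ctr difference -0.48 ± 0.23 (unadjusted p = 0.0561). Without Alt 1 the Alt to Ctr difference was -0.05. These comparisons share libraries. The unadjusted p of the Alt to Ref difference held in 13 of 15 other settings, and was lost without Alt 1 (0.44) or Ref 2 (0.71).

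Chrna5 encodes an accessory subunit that joins alpha4 and beta2 subunits and is known from deep-layer pyramidal cells. It was at 3.27, 4.48 and 4.50 CPM in Ctr, 3.14 and 2.69 in Ref and 7.93 and 3.79 in Alt. Alt 1 was the highest, Alt 2 lay within the Ctr range, and both Ref libraries were below the rest. The Alt to Ref log2 difference was 1.00 ± 0.45 (SE, unadjusted p = 0.0477, edgeR adjusted p = 0.319). It was 0.39 without Alt 1 (unadjusted p = 0.435), and the unadjusted p was also above 0.05 when any Ctr or Ref library was left out, with the replicate block and with no low-count filter.

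The RefSeq promoter windows of genes with an unadjusted p under 0.05 are shown so that the starts of these receptors can be compared. They run from 250 bases before to 50 after each start in build GRCm38.p6, a build whose positions differ from those above, and are read along the strand of the gene. Capitals mark the GC box GGGCGG, read on both strands; TATAAA was also searched on both strands and was in none of these windows. Chrna5 has 2 annotated starts, and Adra1a and Chrna2 had no entry.

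Htr2a, chr14:74640624-74640923, plus strand: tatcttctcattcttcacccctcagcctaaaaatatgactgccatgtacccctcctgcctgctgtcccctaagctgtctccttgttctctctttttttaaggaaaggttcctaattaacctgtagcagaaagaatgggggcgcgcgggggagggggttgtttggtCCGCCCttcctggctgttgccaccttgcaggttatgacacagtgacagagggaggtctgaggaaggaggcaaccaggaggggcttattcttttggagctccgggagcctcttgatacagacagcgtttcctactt
Htr2c, chrX:146962263-146962562, plus strand: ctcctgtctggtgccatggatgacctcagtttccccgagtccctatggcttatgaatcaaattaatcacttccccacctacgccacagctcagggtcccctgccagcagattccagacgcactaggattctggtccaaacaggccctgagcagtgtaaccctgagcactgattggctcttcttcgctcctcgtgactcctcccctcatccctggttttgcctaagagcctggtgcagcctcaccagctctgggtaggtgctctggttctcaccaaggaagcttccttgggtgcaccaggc
Chrna5, first window, chr9:54980630-54980929, plus strand: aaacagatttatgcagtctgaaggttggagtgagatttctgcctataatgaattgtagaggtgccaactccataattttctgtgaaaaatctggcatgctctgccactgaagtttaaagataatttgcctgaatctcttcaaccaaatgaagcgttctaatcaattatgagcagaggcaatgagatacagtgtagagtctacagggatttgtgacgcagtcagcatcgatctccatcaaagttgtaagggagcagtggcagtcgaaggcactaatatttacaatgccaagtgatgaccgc
Chrna5, second window, chr9:54981238-54981537, plus strand: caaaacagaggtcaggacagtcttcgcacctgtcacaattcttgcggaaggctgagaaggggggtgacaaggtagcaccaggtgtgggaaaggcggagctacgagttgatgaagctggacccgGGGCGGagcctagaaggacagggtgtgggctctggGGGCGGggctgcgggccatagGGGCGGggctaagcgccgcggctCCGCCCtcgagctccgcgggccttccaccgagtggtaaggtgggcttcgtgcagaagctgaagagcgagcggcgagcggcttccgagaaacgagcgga

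The Htr2a window held 1 GC box and the second Chrna5 window 4, while the Htr2c and first Chrna5 windows held none. Of the 49 receptor genes, 37 had a window, 42 windows in all, and 54.8% of these held the GC box, against 35.7% of all 32851 windows. TATAAA was in 4.76% of the receptor windows and 13.6% of all. The median GC content was 58.5% in the receptor windows and 52.7% in all.

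Alt and Ref libraries did not overlap for 15 of the 38 genes. Alt was above for 10 of them, which is 26.3% against 21.6% of all genes. Beside Htr2a, Htr2c, Adra1a and Chrna5 these were Chrm2, Chrm3, Chrna7, Chrnb1, Chrnb3 and Htr1f. Alt was below for 5, among them Adra1d, Chrna3, Drd5 and Htr1a, which is 13.2% against 26.1%. Chrm3, a Gq-coupled muscarinic receptor, was at 77.3, 75.3 and 72.6 CPM in Ctr, 58.2 and 72.0 in Ref and 80.5 and 77.2 in Alt. The Ref libraries were the lowest, and the Alt to Ref log2 difference was 0.28 ± 0.17 (unadjusted p = 0.125), or 0.48 with the GC content correction (unadjusted p = 0.0170), 0.12 without Ref 1 and 0.45 without Ref 2. Htr1a had an Alt to Ref log2 difference of -0.55 ± 0.25 (unadjusted p = 0.0509), and of -0.69 without Alt 1 (unadjusted p = 0.0341).

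The comparison of Ref with Ctr asks what the reference allele's transcript changed. EdgeR called no receptor at an adjusted p of 0.05, where 0.0% of all genes were called, and none at an unadjusted p under 0.05, where 3.14% of all genes were. DESeq2 gave 1 receptor at an unadjusted p under 0.05, where 3.45% of all genes had one, and none of 20 at an adjusted p of 0.05, where 0.0551% of all genes passed. The median log2 difference was -0.01 over the receptors and 0.01 over all genes, and 19 of the 38 intervals lay within -1 to 1. Ref was above Ctr in every library for Chrm4 and Drd4 (5.26%, against 12.4% of all genes) and below for Adrb1, Chrm3, Chrna5, Chrnb2 and Htr2c (13.2%, against 10.5%).

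A trend across Ctr, Ref and Alt, scored 0, 1 and 2, follows the ordered design of the study. No receptor passed an adjusted p of 0.05 in edgeR, where 0.0% of all genes did, and DESeq2 gave none of 20, where it called 5.31% of all genes with an adjusted p. At an unadjusted p under 0.05 there were 3 receptors by each tool. These were 7.89%, against 16.7% of all genes by edgeR and 18.9% by DESeq2. By edgeR they were Adra1a with a log2 change per step of 0.41 ± 0.15 (unadjusted p = 0.0180), Htr2a with 0.18 ± 0.08 (unadjusted p = 0.0477) and Chrna2 with 1.45 ± 0.66 (unadjusted p = 0.0482). The edgeR adjusted p was 0.216 for Adra1a and 0.294 for Htr2a and Chrna2. Without Alt 1 none was called, where 7.14% of all genes were, and the values were 0.22, 0.10 and 0.87. Of 15 other settings, 2 took the unadjusted p above 0.05 for Adra1a, 9 for Htr2a and 7 for Chrna2.

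Chrna2 (chromosome 14, 66372488 to 66390397, plus strand) encodes a nicotinic subunit known in cortex from a class of Sst-expressing interneurons. It had 3, 0 and 7 counts in Ctr, 5 and 12 in Ref and 31 and 8 in Alt. Alt 1 was the highest and Alt 2 lay between the Ref libraries in counts. Sst, the peptide that marks those interneurons, was at 17.9 and 33.6 CPM in Alt and 46.9 to 70.7 in the other 5 libraries, so it was lowest in Alt 1, the library where Chrna2 was highest.

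Htr3a, the serotonin-gated channel subunit that marks another interneuron class, was at 4.61, 3.54 and 1.90 CPM in Ctr, 3.53 and 1.81 in Ref and 0.845 and 2.79 in Alt. The groups overlapped, and the Alt to Ctr log2 difference was -0.87 ± 0.63 (unadjusted p = 0.191). It was -0.26 without Alt 1, -0.57 without Ctr 1 and -1.98 without Alt 2 (unadjusted p = 0.0169). The part of the inhibitory markers in the values of Htr3a and Chrna2 was not tested.

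The result depended on the Alt libraries. Without Alt 2, with the lone Alt library assumed to vary like the other groups, 4 receptors passed an adjusted p of 0.05 against Ctr, where 18.3% of all genes did: Adra1a (log2 difference 1.16) higher, and Drd2 (-2.92), Chrm4 (-0.79) and Drd5, which had no count in Alt 1, lower. Against Ref, 4 passed, where 14.4% of all genes did: Htr2c (1.11) and Chrna5 (1.45) higher, and Chrm4 (-1.01) and Drd2 (-3.11) lower. At an unadjusted p under 0.05 there were then 12 against Ctr and 11 against Ref, where 33.2% and 28.9% of all genes were called. Chrm4 was at 27.8, 20.2 and 26.9 CPM in Ctr, 29.2 and 29.2 in Ref and 14.4 and 30.5 in Alt, so Alt 2 was the highest of the 7 and Alt 1 the lowest. Without Alt 1, no receptor passed an adjusted p of 0.05, and 1 against Ctr and 4 against Ref had an unadjusted p under 0.05, where 8.14% and 6.76% of all genes did. Among the Ctr libraries, leaving out Ctr 2 took the Alt to Ctr count at an unadjusted p under 0.05 from 2 to 0, where 19.2% of all genes were called.

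Grouped by transmitter, summed levels overlapped between groups. The serotonin receptors summed to 30.2 to 32.1 FPKM in Ctr, 31.4 and 28.7 in Ref and 32.4 and 28.2 in Alt. The adrenergic sum was 52.8 to 66.5 FPKM in Ctr, 59.7 and 50.6 in Ref and 49.2 and 55.5 in Alt. The muscarinic sum was 57.5 to 63.4 FPKM in Ctr, 58.8 and 54.3 in Ref and 43.8 and 59.6 in Alt, with Alt 1 the lowest. The nicotinic sum was 18.0 to 21.0 FPKM in Ctr, 18.3 and 17.6 in Ref and 22.9 and 17.1 in Alt, with Alt 1 the highest. The dopamine sum was 3.78 to 6.98 FPKM in Ctr, 6.48 and 3.47 in Ref and 3.66 and 4.14 in Alt.

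Grouped by coupling, a grouping made after the values were seen and therefore given without a test, the median Alt to Ctr log2 difference was 0.23 over 8 Gq-coupled genes, -0.49 over 8 Gs-coupled, 0.00 over 12 Gi/o-coupled and 0.21 over 10 channel subunits. Of the Gq-coupled genes (Htr2a, Htr2c, Adra1a, Adra1b, Adra1d, Chrm1, Chrm3 and Chrm5), 7 had a positive difference and 1 a negative one. Of the Gs-coupled genes (among them Htr4, Htr6, Htr7, Drd1, Drd5 and Adrb1), 1 difference was positive and 7 were negative. With a gene length correction these became 6 positive and 2 negative, and 3 positive and 5 negative. Without Alt 1 the medians were 0.11 (Gq), -0.21 (Gs), -0.08 (Gi/o) and -0.04 (channel subunits, 5 positive and 5 negative). By library, the Gq median deviation from the Ctr mean was 0.14 and 0.13 in Alt and -0.01 to 0.11 in Ctr, and the Gs median was -0.28 and -0.17 in Alt, -0.18 to 0.21 in Ctr and -0.29 in Ref 2.

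**Figure D5:**
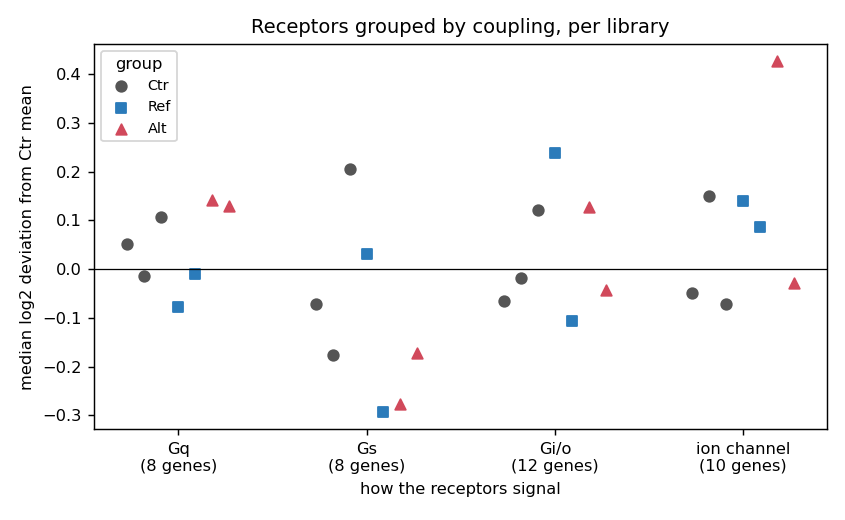
Median log2 deviation of CPM (with 0.5 added) from the Ctr mean over the tested receptor genes of each coupling class, 1 point per library. The Gq points of Alt, at 0.14 and 0.13, lie just above those of Ctr, the Gs points of Alt lie within the span of the Ctr and Ref points, and Alt 1 is high for channel subunits at 0.43.

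The genes that make and clear these transmitters were read next, from a list of 23. Of those known from the projecting neurons, Chat, the acetylcholine-synthesising enzyme, was at 0 to 0.278 CPM and Slc6a4, the serotonin transporter, at 0 to 0.0967 CPM. Others were read at low level, with Slc18a2, the vesicular monoamine transporter, at 7.01 to 13.6 CPM and Ddc, the decarboxylase that makes dopamine and serotonin, at 4.55 to 8.37 CPM. Th, the tyrosine hydroxylase, reached 2.46 CPM and Slc5a7, the choline transporter, 1.93 CPM. The breakdown enzymes were higher, with Maoa at 31.6 to 54.4 CPM and Maob at 34.4 to 50.8. In Alt against Ctr, 15 were tested, 1 had an unadjusted p under 0.05 upward and 1 downward, against 19.8% of all genes in either direction, and none passed an adjusted p of 0.05. The median log2 difference was 0.15, and it was -0.03 without Alt 1 and -0.07 without Alt 2, with 16 genes tested in each, and 0.04 with the replicate block. Bche, a second cholinesterase, was at 7.49, 11.95 and 25.3 CPM in Ctr, 9.96 and 12.1 in Ref and 24.4 and 34.7 in Alt, a log2 difference of 0.98 ± 0.39 (unadjusted p = 0.0280). Its Ctr and Alt values overlapped. The difference ran from 0.66 to 1.61 under 15 other settings, and the unadjusted p was above 0.05 without Ctr 1 (0.66), Ctr 2 (0.85) or Alt 2 (0.71) and with the GC content correction (0.82).

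Downstream of the receptors, 36 of 37 genes for G protein subunits, adenylyl cyclases, phospholipases, channels, kinases and arrestins were tested. In Alt against Ctr, 11 had an unadjusted p under 0.05 upward and 3 downward, and none passed an adjusted p of 0.05 in edgeR, whereas 8 did by DESeq2. Of all genes, 19.8% had an unadjusted p under 0.05 by edgeR and 8.5% of those with an adjusted p passed by DESeq2. With the gene length correction 8 were upward and 2 downward, where 16.4% of all genes were called, and with the GC content correction 16 and 2, where 21.1% were. The median log2 difference was 0.18, against -0.03 over all genes. Without Alt 1 the counts were 4 upward and 1 downward, where 8.14% of all genes were called. Without Alt 2 they were 12 upward and 7 downward, where 33.2% were, with 15 past an adjusted p of 0.05, where 18.3% were. Adcy9, a cyclase that makes cyclic AMP, was at 47.4, 40.5 and 53.8 CPM in Ctr, 66.9 and 64.1 in Ref and 135 and 75.1 in Alt. The groups did not overlap, and the Alt to Ctr log2 difference was 1.15 ± 0.22 (unadjusted p = 0.000246, adjusted p = 0.120), or 0.67 without Alt 1.

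Adcy1, a calcium-stimulated cyclase, was at 799, 984 and 1113 CPM in Ctr, 1097 and 1280.2 in Ref and 2429.6 and 1256 in Alt, with a log2 difference of 0.93 ± 0.24 (unadjusted p = 0.00217). Alt 1 was high and Alt 2 lay within the Ref range, and the difference was 0.38 without Alt 1 (unadjusted p = 0.0489) and 0.55 with the gene length correction. Itpr1, the calcium release channel that Gq signalling opens, had a log2 difference of 0.77 ± 0.21 (unadjusted p = 0.00313), and Gnal, the alpha subunit that couples Drd1 to cyclase, 0.51 ± 0.15 (unadjusted p = 0.00544). With a gene length correction these were 0.24 (unadjusted p = 0.0751) and 0.21 (unadjusted p = 0.122), and Itpr1 was 0.395 without Alt 1. The 3 effectors with an unadjusted p under 0.05 downward, named after their values were seen, were Kcnj9, Adcy8 and Grk6. Kcnj6 and Kcnj3, which like Kcnj9 encode such potassium channel subunits, had positive Alt to Ctr log2 differences. These were 1.13 (unadjusted p = 0.00853) and 0.21 (unadjusted p = 0.201). Kcnj6 was at 10.1 to 19.5 CPM in Ctr, 16.0 and 19.7 in Ref and 45.0 and 17.6 in Alt, so Alt 1 alone was high. Kcnj9, a subunit of the potassium channels that Gi/o signalling opens, was at 84.9, 83.2 and 90.9 CPM in Ctr, 98.8 and 83.0 in Ref and 45.1 and 68.2 in Alt. Both Alt values were the lowest, with a log2 difference of -0.61 ± 0.19 from Ctr (unadjusted p = 0.00765) and -0.68 ± 0.20 from Ref (unadjusted p = 0.00610). Without Alt 1 these were -0.34 (unadjusted p = 0.0911) and -0.40 (unadjusted p = 0.0599), and the difference from Ref also lost its unadjusted p without Ref 1 (-0.56) and with the GC content correction (-0.33). Adcy8, a calcium-stimulated cyclase, had an Alt to Ctr log2 difference of -0.61 ± 0.24 (unadjusted p = 0.0247), which was -0.55 without Alt 1, and its unadjusted p was above 0.05 in 5 of 15 other settings. Grk6, a receptor kinase, was at 56.3, 56.3 and 49.9 CPM in Ctr, 49.5 and 49.1 in Ref and 33.2 and 47.6 in Alt. Alt 1 was far below the rest, and the Alt to Ctr log2 difference of -0.42 ± 0.18 (unadjusted p = 0.0413) was -0.18 without Alt 1 and -0.22 with the GC content correction, with an unadjusted p above 0.05 in 8 of 15 other settings.

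Among 9 chaperones and Ly6-family modulators of nicotinic receptors, all tested, 1 had an unadjusted p under 0.05 upward and 1 downward in Alt against Ctr, where 19.8% of all genes had one, and the median log2 difference was -0.06. Tmem35a, the chaperone NACHO needed for surface alpha7 receptors, was at 43.4, 50.0 and 43.5 CPM in Ctr, 40.9 and 40.0 in Ref and 24.1 and 39.3 in Alt, a log2 difference of -0.52 ± 0.21 (unadjusted p = 0.0299) that was -0.21 without Alt 1 and -0.25 with the gene length correction. Its unadjusted p was above 0.05 in both of these and without Ctr 2 (-0.45). Lypd1 had a log2 difference of 0.32 ± 0.14 (unadjusted p = 0.0450), and its unadjusted p was above 0.05 in 10 of 15 other settings, with each library left out among them. Chrna7 itself was at 9.51 to 13.5 CPM in Ctr, 11.1 and 11.0 in Ref and 14.4 and 11.2 in Alt, with a log2 difference from Ctr of 0.20 ± 0.25. This was 0.016 without Alt 1, 0.10 without Ctr 3, and 0.37 without Alt 2 or Ctr 2.

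Of the 4 histamine receptors, which form a neighbouring amine family, 3 were tested and Hrh4 had no count. Hrh2 was at 11.0 to 12.2 CPM in Ctr, 9.96 and 10.4 in Ref and 14.2 and 14.8 in Alt. Its Alt to Ctr log2 difference was 0.32 ± 0.22 (unadjusted p = 0.162), and that of Hrh3 was -0.32 ± 0.18 (unadjusted p = 0.0978). Hrh1, a Gq-coupled receptor, was at 22.4, 20.6 and 19.9 CPM in Ctr, 19.0 and 16.2 in Ref and 15.5 and 13.4 in Alt. The Alt libraries were the lowest and the Ctr libraries the highest, with an Alt to Ctr log2 difference of -0.53 ± 0.21 (unadjusted p = 0.0251, edgeR adjusted p = 0.189). The unadjusted p was above 0.05 without Ctr 1 (-0.48) or Alt 2 (-0.43), with the GC content correction (-0.39) and with the replicate block (-0.57).

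The receptors were of near-typical length and somewhat noisier than most genes. The 38 tested had a median length of 3536.5 bases against 4051 over all genes tested, and a median biological coefficient of variation of 0.270 against 0.225. Their range was 0.128 to 1.25. The gene bodies of 6 tested receptors (Adra1d, Chrnb2, Drd5, Chrna7, Adrb3 and Htr1b) overlap another tested gene in the table. The kit marks strand, but the strand setting of the counting is not given in the sources used here. Without it, reads of genes that overlap on opposite strands cannot be told apart. The gene overlapping Chrna7, Gm44741, lies on the same strand, where strand does not separate reads.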

How the data were processed

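RNA was read as polyadenylated TruSeq libraries from mouse PFC. The deposited table holds counts per gene, FPKM and TPM made by the authors; per the labels, the tools were STAR and featureCounts, with no version given. The submitters' notes name the human build hg19, while the genes and positions are mouse and match GRCm38 for 0 of the 49 receptors, so the build is taken as not given in the sources used here. FPKM, as deposited by the authors, were used for levels between genes; the deposited TPM values were not used. The deposited table holds 55416 genes, 21885 of them protein-coding, and totals ran from 16655697 to 20750857 counts.

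Counts as deposited were tested with edgeR 4.0.16 (R 4.3.3): TMM scaling, filterByExpr by group, a quasi-likelihood fit over the 7 libraries, 3 pairwise contrasts and an ordered trend, with Benjamini-Hochberg adjustment over all 17254 genes tested. CPM values are TMM-scaled. Standard errors were derived from the log2 difference and the F statistic of each edgeR test, and the 95% intervals from these with a t distribution. All p-values are two-sided. Groups came from the sample titles. Libraries of a group differed beyond counting noise (chi-square per degree of freedom of 18.2 to 56.3), so none was a recount of another in its group. This does not show whether they came from different mice. The scripts were tested on simulated data.

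The 49 genes and the gene lists were chosen with earlier results of these data known. Named with values in every library were genes with an unadjusted p under 0.05 in any comparison and the gene with the highest mean Ctr FPKM of each of the 5 receptor classes; each other receptor is given with its counts or level, and those described in more detail were chosen after their values were seen. From the pathway lists, genes with an unadjusted p under 0.05 in Alt against Ctr were named, at most the 4 of smallest p per list. Further effectors (Kcnj9, Adcy8, Grk6, Kcnj6 and Kcnj3) and histamine receptors (Hrh2 and Hrh3) were named after their values were seen. The values of 1 receptor and 1 pathway gene are not reported here, though the counts include them. Alternatives were DESeq2 1.42.0 (its test, and its size factors in edgeR), no low-count filter (genes with at least 1 count), loess corrections for gene length and GC content, protein-coding genes only, a robust spread, a replicate block and leaving out each library. Promoters came from RefSeq (GRCm38.p6).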

Additional observations from a re-analysis of the deposited data

How the results depend on the processing

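Leaving out each library in turn gave 0 to 4 receptors past an adjusted p of 0.05 in Alt against Ctr and in Alt against Ref, the 4 arising only without Alt 2, and 0 to 0 in Ref against Ctr and in the trend. The counts at an unadjusted p under 0.05 ran from 0 to 12 (Alt against Ctr, 12 without Alt 2 and 0 without Ctr 2), 0 to 11 (Alt against Ref, 11 without Alt 2 and 0 without Ref 2), 0 to 2 (Ref against Ctr) and 0 to 4 (trend). The median log2 difference ran from -0.056 to 0.109, 0.017 to 0.207, -0.032 to 0.103 and -0.033 to 0.037 in the same order. The count of 2 in Ref against Ctr arose without Alt 1, and that of 4 in the trend without Alt 2. Those fits rest on a lone Alt library, so these counts were not weighed against all genes. With Ctr 1, 2 or 3 left out, Ref against Ctr had 0, 1 and 0 receptors (2.06%, 2.73% and 3.74% of all genes). The trend then had 1, 3 and 2 (9.73%, 18.1% and 15.3%). In Alt against Ref the count was 4 by DESeq2's Wald test, with DESeq2 size factors and with protein-coding genes only (where 16.7%, 15.7% and 17.2% of all genes were called), 5 with the gene length correction (13.0%) and 7 with the GC content correction (16.6%). The last 2 also took the median to 0.27 and 0.35, while the median over all genes moved from -0.04 to 0.05 and 0.10. In Ref against Ctr the count was 1 by DESeq2 (3.45% of all genes) and with the GC content correction (3.34%), and 2 with no low-count filter (3.0%) or the gene length correction (5.17%). With the GC content correction Alt against Ctr had 1 (21.1%). The cause was not tested. With the replicate number as a block the counts were 1 in Alt against Ctr, 1 in Alt against Ref and 1 in the trend (12.6%, 9.01% and 12.8% of all genes), and no adjusted p passed 0.05. Same-numbered libraries correlated in their deviations from the group means by -0.10 to 0.07, so the numbers were not taken as pairs. Of the 38 receptors, 22 changed sign in Alt against Ctr under at least 1 of the 15 alternatives, 17 in Alt against Ref and 18 in Ref against Ctr, while the receptors with an unadjusted p under 0.05 in a comparison kept their sign there. Among differences given above, Adrb1 in Alt against Ctr turned to 0.038 with the gene length and 0.095 with the GC content correction and ran from -0.42 to 0.14 as each library was left out; Drd1 turned to 0.076 with the length correction and ran from -0.24 to 0.32. Chrna4 turned to 0.025 by DESeq2 and with its size factors, 0.0090 and 0.22 with the corrections and 0.016 with protein-coding genes only, and ran from -0.19 to 0.17, and Htr2c ran from -0.054 to 0.62. Chrm1 in Alt against Ref turned to -0.017 with no low-count filter and -0.022 with the length correction, was 0.29 with the GC content correction and ran from -0.094 to 0.11. Htr2a in Ref against Ctr turned to -0.0065 and -0.0064 by DESeq2 and with its size factors, -0.062 with the length correction and -0.00094 with the replicate block, and ran from -0.10 to 0.10. Over all genes, 0 passed an adjusted p of 0.05 in Alt against Ctr by edgeR, 1097 by DESeq2, 1484 with no low-count filter and 3451 without Alt 2. With 2 libraries in Ref and in Alt, standard errors ran from 0.15 to 1.83 (log2) in Alt against Ctr. Small changes of the low receptors were not detectable, and neither were some large ones. By edgeR, Chrna2 at a log2 difference of 2.90 had an unadjusted p of 0.0659, and Drd5 at -2.16 one of 0.117.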
